A study of Mus musculus with 30 samples.

Results

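Immediate early genes are described here by 10 members chosen by symbol, Fos, Fosb, Jun, Junb, Egr1, Ier2, Atf3, Nr4a1, Dusp1 and Klf2, of 54232 gene IDs counted in each of 30 RNA-seq libraries of mouse pancreatic islets. All 10 were found and all 10 passed the filter on low counts in every comparison. The series asked how cadmium chloride, a salt of a toxic metal that can replace zinc and calcium in proteins, changes islet transcripts in the animal and in the dish. Every library came from male C57BL/6N mice labelled WT, with no transgene or deleted gene named. Cadmium mice had CdCl2 at 1 mM for 6 weeks (4 libraries) or 18 weeks (5 libraries), and their vehicle groups had 5 and 6 libraries. In the third setting isolated islets were kept for 96 hours with 0.5 uM CdCl2 (5 libraries) or vehicle (5 libraries). Route of dosing, age of the mice and pooling are not stated in the labels. The labels do not say that libraries of a group came from separate animals or cultures, so p-values reflect the spread among the libraries of a group, some or all of which may be technical.

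Immediate early genes are transcribed within minutes of a stimulus without any need for new protein, through transcription factors that already sit in the cell and are switched on by kinases. Their transcripts are short-lived, and many encode transcription factors or brakes on the same kinase signals. In beta cells, the insulin-secreting cells of the islet, glucose, calcium and cyclic AMP are known inducers, and tissue dissociation induces them in many organs.

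Fos and Fosb encode partners that pair with the products of Jun and Junb to form the AP-1 transcription factor. Egr1 and Klf2 encode zinc finger transcription factors, and Klf2 is best known from endothelial cells and lymphocytes. Atf3 encodes a stress-induced factor of the ATF/CREB family, and Nr4a1 an orphan nuclear receptor. Dusp1 encodes a phosphatase that switches off MAP kinases, and Ier2 a small nuclear protein of the early response.

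The short core of a cyclic AMP response element (CRE) is TGACG or its reverse complement CGTCA. It stood in 7 of the 8 member promoters searched, against 17.8% of 32851 promoter windows of the same length. CREB, ATF and AP-1 proteins bind such elements. The windows are the 250 bases before the annotated start on build GRCm38.p6. The whole element TGACGTCA stood in Dusp1 alone, against 1.55% of all windows, and an EGR site, GCGNGGGCG or its reverse complement CGCCCNCGC, in 3 of 8 (Fosb, Nr4a1 and Klf2), against 4.7%. The AP-1 site TGANTCA and the CArG box bound by serum response factor were found in 0 of 8 windows, against 6.75% and 1.47%. Sites further upstream, or in Egr1 or Ier2, lay outside this search. Both strands were searched, and a whole CRE holds 2 cores. A match is a description of letters. The windows below are from Fos, the most abundant member per length in fresh islets, from Atf3, whose proportion to Fos differed most between settings, from Nr4a1 for its 4 cores, from Dusp1 for its whole element, and from Klf2 for its place in the culture comparison. Capitals mark CRE cores and the whole CRE.
Fos: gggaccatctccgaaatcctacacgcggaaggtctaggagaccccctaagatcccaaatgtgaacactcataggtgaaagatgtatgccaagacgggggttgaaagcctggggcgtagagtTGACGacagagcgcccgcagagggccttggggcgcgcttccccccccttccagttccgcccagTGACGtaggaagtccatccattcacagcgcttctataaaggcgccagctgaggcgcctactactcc
Atf3: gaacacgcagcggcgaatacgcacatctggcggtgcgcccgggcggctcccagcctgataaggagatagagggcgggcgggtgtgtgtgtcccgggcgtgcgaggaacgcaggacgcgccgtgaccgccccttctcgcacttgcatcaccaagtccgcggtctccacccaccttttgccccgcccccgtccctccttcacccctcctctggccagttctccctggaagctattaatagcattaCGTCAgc
Nr4a1: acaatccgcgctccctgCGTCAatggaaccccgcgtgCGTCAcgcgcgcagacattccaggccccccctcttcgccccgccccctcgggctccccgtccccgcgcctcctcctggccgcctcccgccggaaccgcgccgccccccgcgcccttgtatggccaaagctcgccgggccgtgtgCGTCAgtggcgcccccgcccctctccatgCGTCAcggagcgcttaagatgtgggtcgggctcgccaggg
Dusp1: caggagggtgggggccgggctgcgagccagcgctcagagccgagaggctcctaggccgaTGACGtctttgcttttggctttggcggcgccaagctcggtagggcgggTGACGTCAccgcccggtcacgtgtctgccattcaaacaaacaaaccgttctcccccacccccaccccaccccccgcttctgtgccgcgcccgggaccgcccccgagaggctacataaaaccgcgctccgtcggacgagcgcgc
Klf2: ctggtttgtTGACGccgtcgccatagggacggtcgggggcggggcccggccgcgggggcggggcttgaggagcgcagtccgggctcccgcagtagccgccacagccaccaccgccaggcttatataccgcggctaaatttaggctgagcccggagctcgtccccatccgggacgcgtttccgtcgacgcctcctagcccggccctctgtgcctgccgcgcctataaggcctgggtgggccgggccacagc
These windows lie at chr12:85473640-85473889 (Fos, plus strand), chr1:191183334-191183583 (Atf3, minus strand), chr15:101266596-101266845 (Nr4a1, plus strand), chr17:26508473-26508722 (Dusp1, minus strand) and chr8:72318812-72319061 (Klf2, plus strand), each printed 5′ to 3′ on the strand of its gene.

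Total counts were 49564350 to 58366797 per library at 6 weeks, 9092759 to 51852364 at 18 weeks and 24197072 to 26549350 in culture. The 3 shallow libraries of 18 weeks were cadmium 5 (21573301 counts), vehicle 4 (14751249) and vehicle 6 (9092759). Beta cell markers such as Ins1, Ins2 and Iapp held 12.6 to 24.6% of counts in every library, as the label of islets requires. Acinar markers, genes of digestive enzymes, held 1.58 to 19.1% of counts in cadmium and 0.257 to 1.77% in vehicle libraries at 18 weeks. They held 3.65 to 8.06% in cadmium and 2.69 to 4.93% in vehicle libraries at 6 weeks, and under 0.0148% in culture. In such bulk samples, fewer cells of a type and less RNA per cell cannot be told apart.

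The members together took from 0.00653% of counts, in a cadmium culture, to 0.366%, in cadmium library 5 of 18 weeks. Levels are given as CPM, counts set against TMM-scaled library size. Per kilobase of annotated exon, Fos was highest in vehicle islets of 6 weeks at 304 ± 90.02 CPM per kb, followed by Jun at 115 ± 29.7 and Egr1 at 75.8 ± 26.2 (SD, n = 5). Junb (42.3 ± 4.83), Dusp1 (31.7 ± 8.22), Fosb (30.4 ± 15.2) and Ier2 (24.0 ± 6.08) came next on this scale. Neighbours among these 4 lay within reach of each other's SD, while Junb and Ier2 did not. The members Nr4a1 (7.84 ± 2.07), Klf2 (4.34 ± 1.20) and Atf3 (2.96 ± 0.948) were lowest. In vehicle cultures the order on the same scale was another one, with Jun at 7.15 ± 1.11, Junb at 6.74 ± 2.23, Egr1 at 4.95 ± 5.49, Atf3 at 4.23 ± 0.612, Dusp1 at 3.50 ± 0.439 and Fos at 3.17 ± 2.92 CPM per kb (SD, n = 5). Fosb, at 0.0833 ± 0.0330 CPM per kb, and Klf2, at 0.174 ± 0.0513, were then the lowest members. Counts of Jun, Junb and Dusp1 are uncertain to the extent that reads of Junos, Prdx2 and Ergic1, which overlap them on the other strand, cannot be told apart, since no source states a strand setting.

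**Figure D1:**
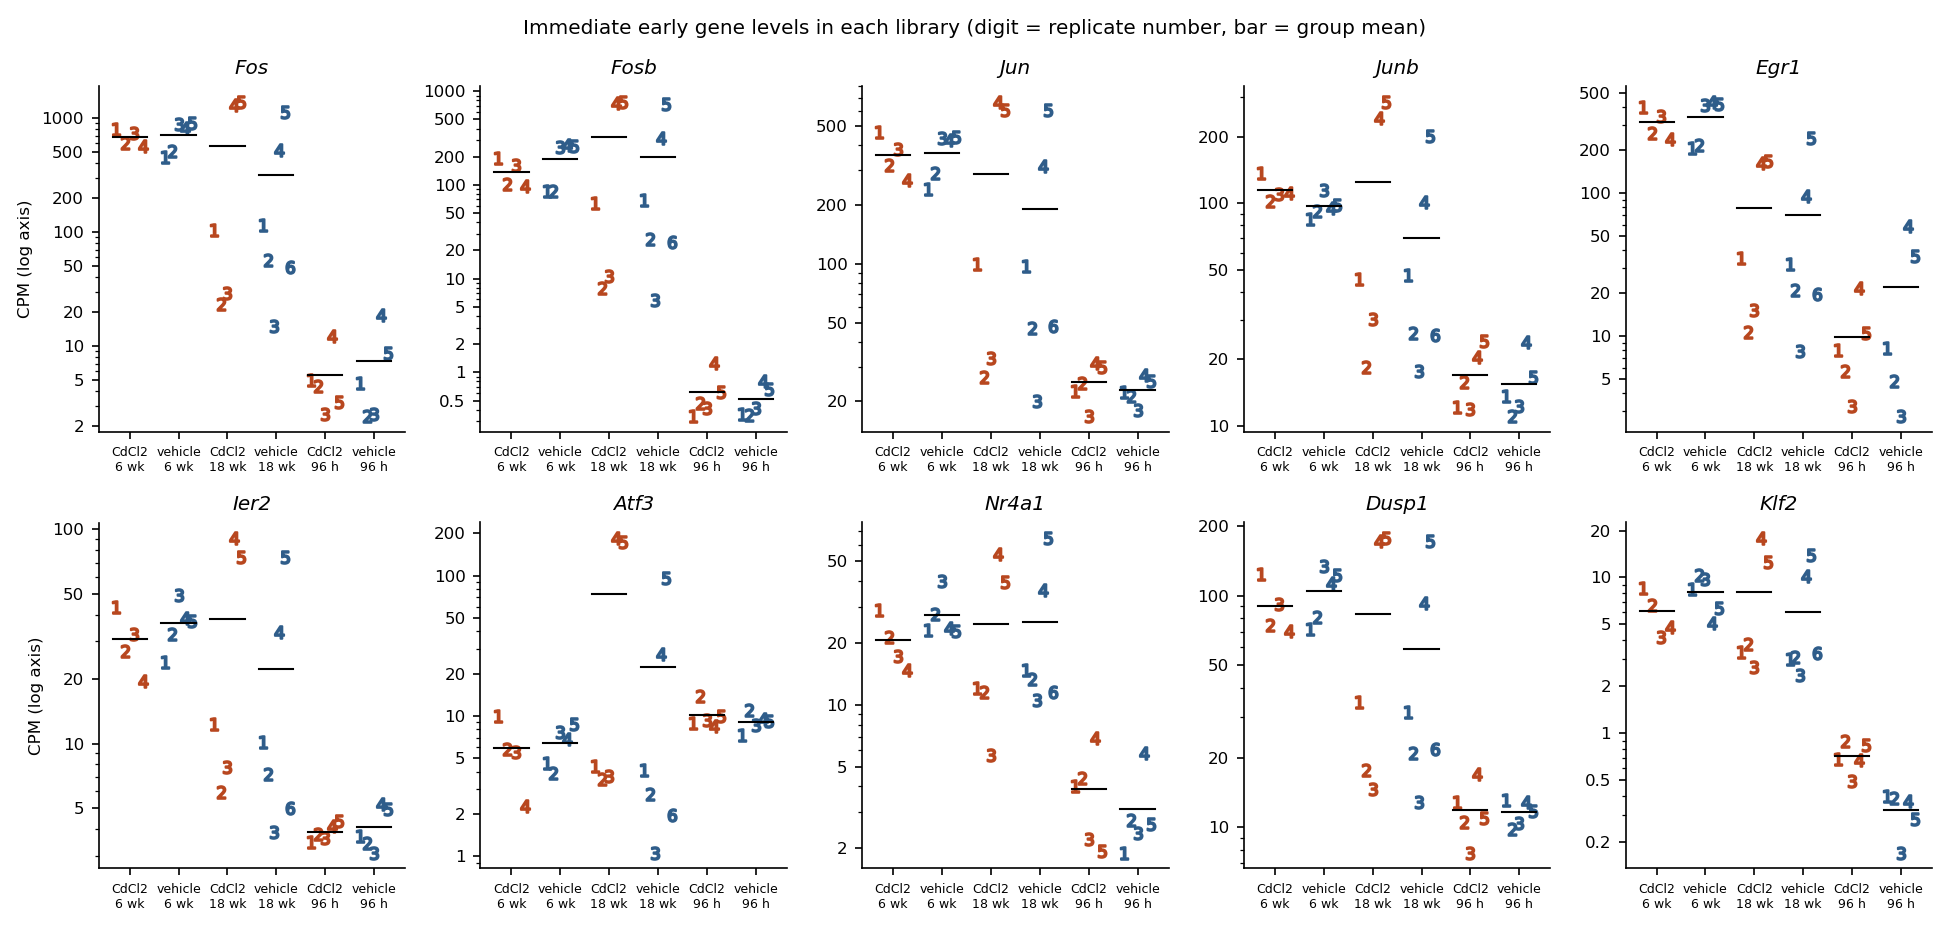
CPM of each member in each library on a log axis, with CdCl2 left of vehicle at 6 weeks, 18 weeks and 96 hours in culture. Digits are replicate numbers as in the labels and bars are group means. At 18 weeks libraries 4 and 5 of both groups stand above the others in all 10 panels, and in culture Klf2 is the 1 panel in which the groups do not overlap.

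At 18 weeks the members split the libraries of each group far apart, in cadmium and vehicle islets alike. Fos stood at 104, 23.4, 29.1, 1303 and 1392 CPM in cadmium libraries 1 to 5, whereas vehicle libraries 1 to 6 held 115, 57.2, 15.0, 521, 1142 and 49.2 CPM. Libraries 4 and 5 of both groups were high, and the groups overlapped. Its AP-1 sister Fosb stood at 64.9, 7.94, 10.6, 749 and 773 CPM in cadmium libraries and at 68.9, 26.2, 5.92, 318, 739 and 24.6 CPM in vehicle libraries, with the same libraries on top. Their partner Jun stood at 99.8, 26.7, 33.3, 666 and 608 CPM in cadmium and at 97.4, 47.3, 20.01, 316, 608 and 48.4 CPM in vehicle libraries. Junb stood at 45.7, 18.4, 30.3, 242 and 287 CPM in cadmium and at 47.5, 26.2, 17.7, 101, 201 and 25.5 CPM in vehicle libraries. The AP-1 genes thus ranked the libraries almost alike in both groups.

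The remaining members followed the same libraries. Egr1 stood at 35.3, 10.6, 15.2, 163 and 168 CPM in cadmium libraries and at 32.0, 21.2, 7.92, 95.3, 244 and 19.8 CPM in vehicle libraries. Atf3, the stress-induced factor, stood at 4.38, 3.53, 3.71, 185 and 173 CPM in cadmium libraries and at 4.14, 2.76, 1.06, 27.8, 97.03 and 1.95 CPM in vehicle libraries. It had the widest step of all members, since the lower of libraries 4 and 5 was 39.6-fold above the next in cadmium and 6.71-fold above the next in vehicle islets. Nr4a1 had the narrowest such step in cadmium islets, 3.27-fold, and Junb in vehicle islets, 2.13-fold. Dusp1 stood at 34.8, 17.7, 14.7, 173 and 177 CPM in cadmium libraries and at 31.6, 20.9, 12.8, 92.7, 173 and 21.7 CPM in vehicle libraries. Ier2 spanned 5.95 to 91.04 CPM in cadmium and 3.85 to 74.1 CPM in vehicle islets, and Klf2 2.65 to 17.8 CPM and 2.38 to 13.9 CPM, again with libraries 4 and 5 highest.

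Libraries 4 and 5 were the top 2 of their group for 10 of 10 members in both groups, and vehicle library 3 was the lowest of its group for 10 of 10. The same pair of numbers led both groups in 876 of 22721 genes (3.86%). The labels do not say that equal numbers share anything, and this count was made after the values were seen. The SD of log2 CPM within a group lay above the 95th percentile of all 22721 genes for 10 of 10 members in cadmium islets, with a median of 1.86 against 0.252 for all genes, and for 10 of 10 in vehicle islets, with 1.72 against 0.278. At 6 weeks 1 of 10 members in each group lay above that percentile, and in culture 2 of 10 in each.

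**Figure D2:**
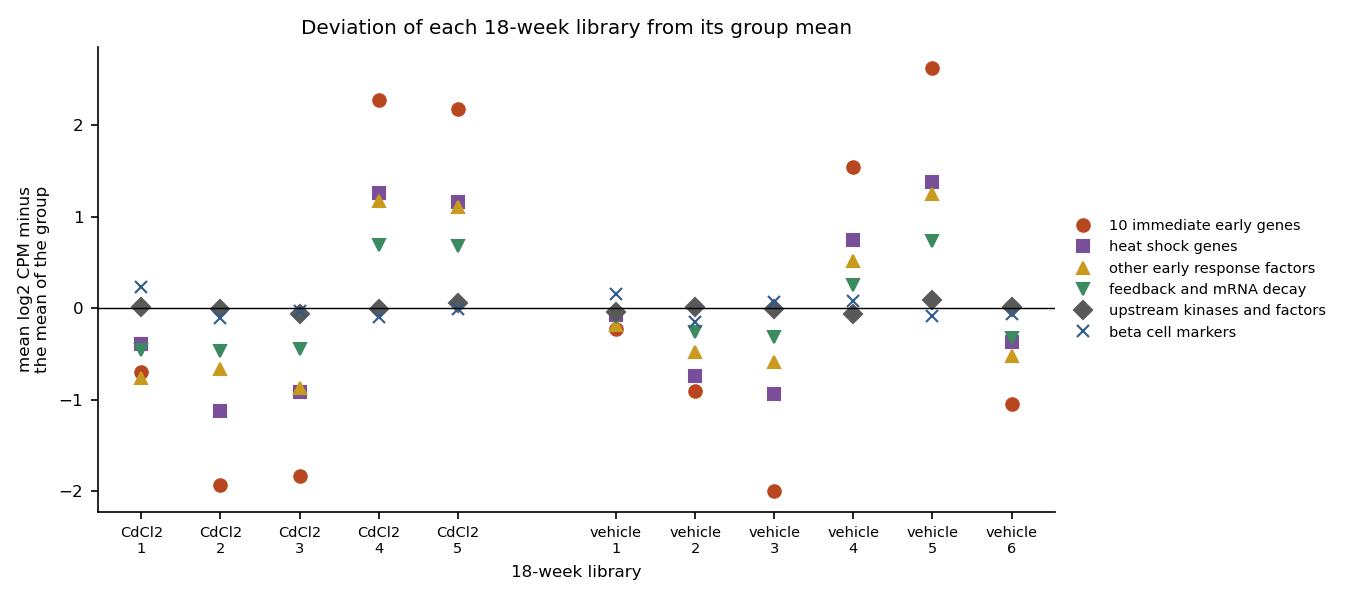
Mean deviation in log2 CPM of each gene list from the mean of its group, for the 5 CdCl2 and 6 vehicle libraries of 18 weeks. The 10 members span -1.99 to 2.62, heat shock genes -1.12 to 1.38, and the upstream kinases and factors -0.06 to 0.09.

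As list means, other early genes leaned the same way with a smaller reach, while the upstream kinases and factors stayed within 0.09 of their group means. Some single genes reached further than some members. In vehicle islets of 18 weeks Hspa1b spanned 12.7 to 648 CPM and Npas4 1.11 to 48.9 CPM, against 2.38 to 13.9 CPM for Klf2. Averaged over the 10 members, log2 CPM deviated from the group mean by 2.28 in cadmium library 4, 2.17 in cadmium library 5, 1.54 in vehicle library 4 and 2.62 in vehicle library 5. The 13 heat shock genes, which encode chaperones, deviated by 1.26, 1.16, 0.74 and 1.38 in these libraries. The list of upstream kinases and factors such as Mapk3 and Creb1, 25 genes, deviated by -0.01, 0.05, -0.06 and 0.09, and the 10 beta cell markers by -0.09, -0.01, 0.08 and -0.08. Depth and exocrine content were measured in the same libraries. Cadmium libraries 4 and 5 held 49632055 and 21573301 counts and 19.1% and 6.31% acinar transcripts, and vehicle libraries 4 and 5 held 14751249 and 48295640 counts and 0.257% and 0.647%. The acinar share was thus the highest and the third highest of 5 with cadmium and the 2 lowest of 6 with vehicle, and its part in the pattern was not tested.

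The members moved together from library to library within groups. Over the 11 libraries of 18 weeks, Pearson's r of within-group deviations was 0.92 to 0.998 over the 45 pairs of members, with a median of 0.98. The points share library and depth, and libraries 4 and 5 lie far from the rest. Over the 9 libraries of 6 weeks the 45 values ran from -0.29 to 0.997 with a median of 0.76, and over the 10 cultures from -0.43 to 0.93 with a median of 0.60. Klf2 went with the mean of the other members least at 6 weeks (r = 0.04), and Atf3 least in culture (r = -0.07).

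Of 22711 other genes, 32 had r above 0.9 with the mean deviation of the members over all 30 libraries. The 10 highest were Dnajb1 (0.97), Arc (0.97), Btg2 (0.97), Ppp1r15a (0.96), Hspa1a (0.96), Zfp36 (0.96), Rhob (0.95), Npas4 (0.95), Rnf138rt1 (0.95) and Hspa1b (0.95). Dnajb1, Hspa1a and Hspa1b encode heat shock chaperones, and counts of the near-identical Hspa1a and Hspa1b are uncertain. Arc and Npas4 are activity-induced genes of neurons, Btg2 is an antiproliferative early gene, Zfp36 encodes a protein that speeds mRNA decay, and Ppp1r15a a phosphatase subunit of the stress response. Within the 9 libraries of 6 weeks r was 0.77 to 0.98 for the 10 genes, within the 11 of 18 weeks 0.97 to 0.99. Within the 10 cultures it was 0.81 for Zfp36, 0.77 for Btg2, 0.74 for Hspa1a, 0.64 for Hspa1b and 0.53 for Arc. It was lower there for Npas4 (0.37), Rnf138rt1 (0.36), Dnajb1 (0.31), Rhob (-0.03) and Ppp1r15a (-0.09). Dnajb1 spanned 43.9 to 869 CPM in cadmium and 52.3 to 1055 CPM in vehicle islets of 18 weeks, against 42.9 to 103 CPM and 49.6 to 85.6 CPM at 6 weeks.

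Cadmium against vehicle at 18 weeks gave no call among the members, and the intervals were wide. By edgeR's quasi-likelihood test, 0 of 10 members passed an adjusted p of 0.05, where 0.359% of 20911 genes did, and 0 of 10 passed an unadjusted 0.05, where 18.2% did. DESeq2 also called 0 of 10, against 3.86% of genes. The log2 fold change was positive for 9 of 10, against 50.05% of all genes. Its median was 0.65, against 0.00029 for all genes tested. The members moved together at 18 weeks (median r of 0.98 over pairs), so their signs are not separate results. Atf3 had the highest log2 fold change, 1.68 ± 1.24 (SE), with a 95% interval from -0.97 to 4.33 and an adjusted p of 0.467. Fos stood at 0.85 ± 1.14 (-1.61 to 3.30), Junb at 0.83 ± 0.75 (-0.78 to 2.44) and Nr4a1 at -0.05 ± 0.59 (-1.32 to 1.22). For all 10 members the interval held both 0 and a log2 change of 1. In the same comparison 21 of 27 acinar markers were called higher, against 0.344% of all genes. With the acinar share as a covariate the sign turned for 9 members, all with adjusted p above 0.99. That share was 1.58 to 19.1% in cadmium and 0.257 to 1.77% in vehicle libraries, so this fit cannot separate it well from cadmium. No library left out made a call, but single libraries set the size. Atf3 stood at 3.40 without vehicle library 5 and at 0.98 without cadmium library 4, and Fos at 1.91 without vehicle library 5 and at 0.20 without cadmium library 5.

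**Figure D3:**
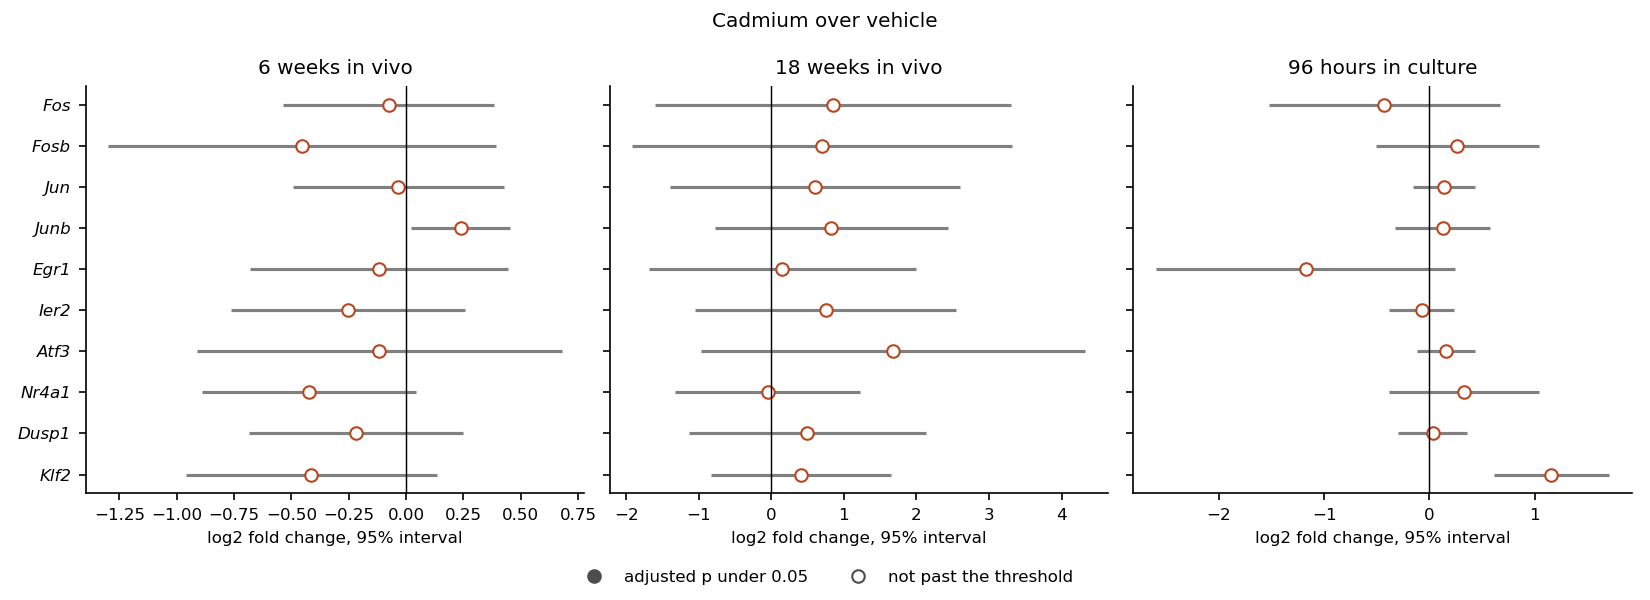
Log2 fold change of cadmium over vehicle for each member with its 95% interval from edgeR, in separate panels for 6 weeks, 18 weeks and 96 hours in culture, each with its own x axis. Open points did not pass an adjusted p of 0.05, which holds for all 30, and the intervals of 18 weeks are the widest for each of the 10 members.

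At 6 weeks the members stood at high and overlapping levels in both groups. Fos stood at 803, 609, 745 and 567 CPM in cadmium libraries and at 456, 518, 885, 817 and 899 CPM in vehicle libraries. Egr1 stood at 400.1, 265, 349.9 and 240.3 CPM in cadmium and at 207, 216, 417, 437 and 421 CPM in vehicle libraries. Within the vehicle group libraries 1 and 2 were lower than 3, 4 and 5 for both genes, and the cadmium values lay between. Fosb showed the same step, at 194, 103, 162 and 97.6 CPM in cadmium and at 87.2, 85.9, 251, 264 and 261 CPM in vehicle libraries. Cadmium library 1 was the highest of its group for 10 of 10 members, a place it took in 22.02% of all genes, and cadmium library 4 the lowest for 8 of 10. These held the least (3.65%) and the most (8.06%) acinar transcripts of the 4, whose part was not tested.

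By edgeR's quasi-likelihood test 0 of 10 members passed the adjusted threshold at 6 weeks, and of all 18080 genes 0 did (0%). At an unadjusted 0.05, 1 of 10 members passed, against 5.11% of genes. DESeq2 called 0 of 10 members and 0.0442% of genes. The 1 member was Junb, at 137, 102, 110.3 and 112 CPM in cadmium libraries and 85.3, 92.4, 115, 95.4 and 98.9 CPM in vehicle libraries, with overlap. Its log2 fold change was 0.24 ± 0.10 (SE, unadjusted p = 0.0327 and adjusted p = 0.919 by edgeR). The other 9 had negative values between -0.45 (Fosb) and -0.03 (Jun), and the median of the 10 was -0.17, against -0.0019 for all genes. All intervals but that of Junb held 0. All but that of Fosb (-1.30 to 0.39) stayed within 1 log2 unit of 0, among them Fos (-0.53 to 0.38) and Jun (-0.49 to 0.43).

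In culture, Klf2 was the member on which cadmium and vehicle separated. It had 20, 25, 14, 19 and 26 counts in cadmium cultures and 11, 11, 5, 10 and 8 counts in vehicle cultures. On the CPM scale this was 0.683, 0.898, 0.492, 0.672 and 0.841 in cadmium and 0.395, 0.388, 0.172, 0.367 and 0.281 in vehicle cultures. Every cadmium culture lay above every vehicle culture, as in 0.334% of 16743 genes. The log2 fold change was 1.16 ± 0.26 (SE), with a 95% interval from 0.61 to 1.71. By edgeR's quasi-likelihood test its unadjusted p of 0.0004213 ranked 6 of 16743 genes and its adjusted p was 0.888, so it was not called. Few reads stood behind each value, and with each culture left out in turn the log2 fold change ran from 1.00 to 1.27 and the adjusted p from 0.374 to 0.999.

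Lists of markers of other cell types were spread to both sides in the same cultures. Endothelial markers had positive log2 fold changes in 11 of 13 tested, with a median log2 fold change of 0.11, and held 0.00779 to 0.0136% of counts in cadmium and 0.00676 to 0.0121% in vehicle cultures. Stellate cell and fibroblast markers were positive in 13 of 14, with a median of 0.52, at 0.101 to 0.226% in cadmium and 0.0712 to 0.162% in vehicle cultures. No marker of these or the following lists passed the adjusted threshold, and their part in the Klf2 value was not tested. Of 11 lymphocyte markers 3 passed the filter on low counts, 1 positive and 2 negative, with a median of -0.06. Schwann cell markers were positive in 7 of 8 (median 0.32) and ductal markers in 8 of 9 (0.12). Macrophage markers were positive in 5 of 14 (median -0.04), acinar markers in 1 of 9 (-0.20), alpha, delta and PP cell markers in 2 of 8 (-0.09) and beta cell markers in 0 of 10 (-0.06), where 48.77% of all genes were positive.

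The other members overlapped between cadmium and vehicle cultures. Fos stood at 5.09, 4.49, 2.53, 12.3 and 3.20 CPM in cadmium cultures and at 4.71, 2.43, 2.51, 18.8 and 8.77 CPM in vehicle cultures. Egr1 stood at 7.99, 5.68, 3.23, 21.6 and 10.4 CPM in cadmium and at 8.26, 4.86, 2.75, 58.97 and 36.2 CPM in vehicle cultures, a log2 fold change of -1.18 ± 0.67 (SE, adjusted p = 0.888 by edgeR). Culture 4 was the highest of its group for 6 of 10 members with cadmium and for 7 of 10 with vehicle, a place these libraries took in 17.8% and 18.6% of all genes. Atf3 lay in a narrow range, at 8.91, 13.8, 9.42, 8.49 and 10.1 CPM in cadmium and 7.33, 10.96, 8.61, 9.44 and 9.19 CPM in vehicle cultures. In all, 0 of 10 members passed the adjusted threshold, against 0.00597% of genes, and 1 of 10 (Klf2) an unadjusted 0.05, against 5.49%. DESeq2 called 0 of 10, against 0.00306% of genes.

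The cadmium effect itself was not shown to differ between settings for any member. In 1 edgeR fit of all 6 groups, 0 of 10 members were called for 18 weeks minus 6 weeks, against 1.68% of 22721 genes, for 96 hours minus 6 weeks, against 0%, and for 96 hours minus 18 weeks, against 0.0176%. At an unadjusted 0.05 the count was also 0 of 10 in each, and DESeq2 called 0 of 10 in each, against 8%, 0.0077% and 1.37% of genes in the same order. The difference between 18 and 6 weeks was 1.77 ± 1.35 log2 units for Atf3 and 0.35 ± 0.68 for Nr4a1. Its 95% interval for Atf3 ran from -0.98 to 4.52, so even a difference of several log2 units could not be told from 0 with these libraries.

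For every member but Atf3, the largest log2 fold change between vehicle groups lay between cultured and fresh islets. In vehicle cultures 9 of 10 members were lower than in vehicle islets of 6 weeks, where 34.8% of 17605 genes were called lower, and Atf3 was higher, where 33% were called higher. The log2 fold change was -8.48 ± 0.54 for Fosb, -6.57 ± 0.47 for Fos and -4.61 ± 0.26 for Klf2 (SE, edgeR adjusted p = 1.892e-08, 7.188e-08 and 6.284e-09). Fosb averaged 0.520 ± 0.206 CPM in vehicle cultures and 190.02 ± 94.6 CPM in vehicle islets of 6 weeks (SD, n = 5 each). Fos averaged 7.45 ± 6.87 CPM in vehicle cultures and 715 ± 212 CPM in vehicle islets of 6 weeks. For each of the 9 the groups did not overlap, as in 29.2% of all genes.

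Jun, Egr1, Ier2, Nr4a1 and Dusp1 had log2 fold changes of -3.98 to -3.13 and Junb of -2.63, all with edgeR adjusted p of 0.0001285 or less. The median over the 10 members was -3.53, against -0.0043 for all genes. Atf3 rose by 0.55 ± 0.20, to 9.11 ± 1.32 CPM in vehicle cultures, against 6.37 ± 2.04 CPM in vehicle islets of 6 weeks (SD, n = 5 each; edgeR adjusted p = 0.02559), and the groups overlapped. That call was lost without vehicle library 1 of 6 weeks (adjusted p = 0.0546), vehicle culture 2 (0.0695) or vehicle culture 4 (0.0504), and with all 6 groups in 1 fit (0.684). Endothelial markers were called lower in 14 of 14 and acinar markers in 27 of 27 in the same comparison, with medians of -2.99 and -10.62, and their part in the fall of Klf2 and the others was not tested. Time in the dish, handling after isolation and library depth differ together between these groups and cannot be told apart.

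**Figure D4:**
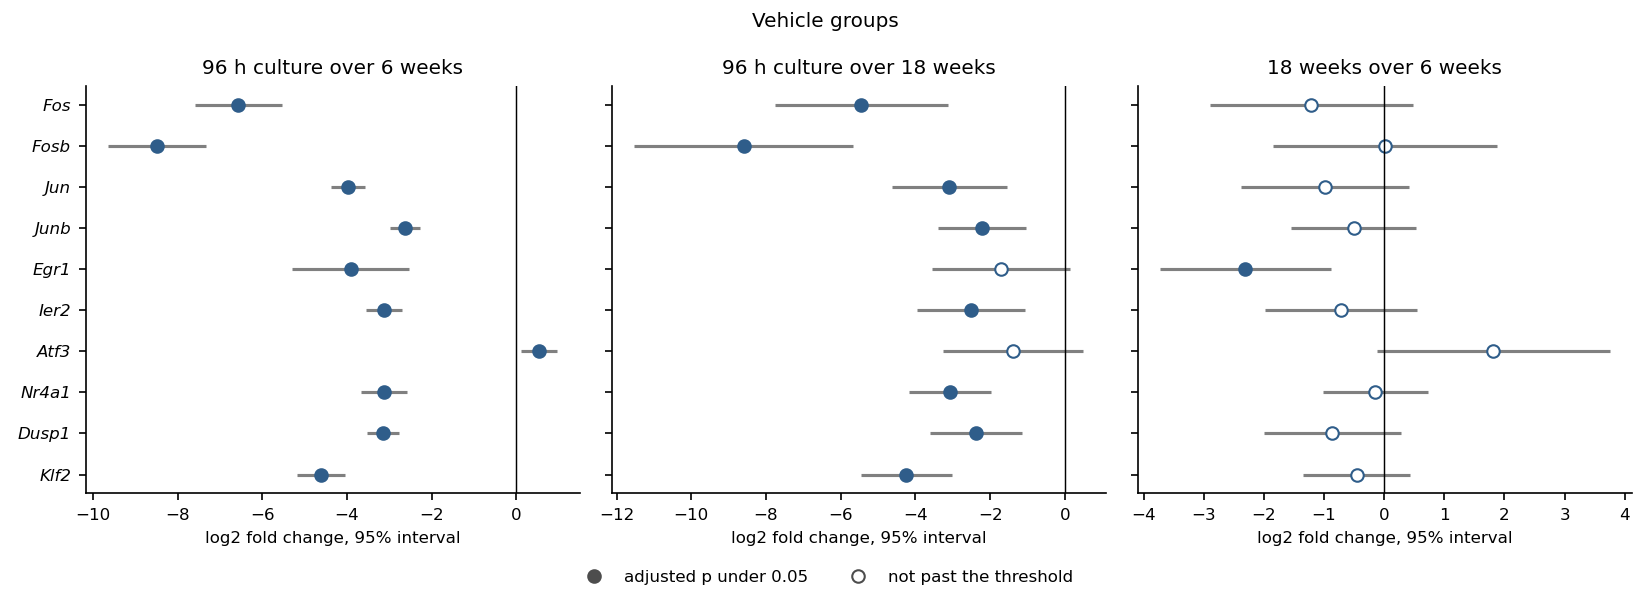
Log2 fold change with its 95% interval from edgeR between vehicle groups, as culture over 6 weeks, culture over 18 weeks and 18 weeks over 6 weeks, each panel with its own x axis. Filled points passed an adjusted p of 0.05, which holds for 10, 8 and 1 of the 10 members.

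Against vehicle islets of 18 weeks, 8 of 10 members were lower in vehicle cultures, where 36.6% of 18449 genes were called lower and 30.6% higher. The log2 fold change was -8.60 ± 1.38 for Fosb, -5.45 ± 1.08 for Fos, -4.25 ± 0.57 for Klf2 and -3.08 ± 0.51 for Nr4a1 (SE, edgeR adjusted p = 5.342e-05, 0.0003947, 9.048e-06 and 7.503e-05). Only Fosb, Nr4a1 and Klf2 did not overlap, as in 25.8% of all genes. For Fos, Jun, Junb, Ier2 and Dusp1, vehicle library 3 of 18 weeks lay within the range of the vehicle cultures. Egr1 (-1.71 ± 0.86, adjusted p = 0.0937) and Atf3 (-1.38 ± 0.88, adjusted p = 0.178) did not pass. Without vehicle culture 4 Egr1 passed, at -2.47 with an adjusted p of 0.0313. The 2 culture comparisons share the vehicle cultures.

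Between vehicle islets of 18 and 6 weeks, Egr1 was the 1 member called, and it was lower at 18 weeks, where 35.9% of 20551 genes were called lower. It averaged 70.02 ± 90.7 CPM at 18 weeks (SD, n = 6) and 339.7 ± 117 CPM at 6 weeks (SD, n = 5), a fall of 2.31 ± 0.66 on the log2 scale (SE, edgeR adjusted p = 0.005909). Vehicle library 5 of 18 weeks, at 244 CPM, was the 1 library that overlapped with the range of 6 weeks, 207 to 437 CPM. With each library left out in turn Egr1 was called in 11 of 11 fits. Fos (-1.21 ± 0.79), Jun (-0.99 ± 0.65) and Dusp1 (-0.86 ± 0.53) were on the same side without passing, and Fosb (0.02 ± 0.87) and Atf3 (1.81 ± 0.91, adjusted p = 0.08503) were not.

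This count rested on single libraries. Without vehicle library 5 of 18 weeks, 8 of 10 members were called lower, where 35% of genes were, with Fos at -2.24 (adjusted p = 0.0107), Jun at -1.80 (0.0103), Ier2 at -1.68 (0.00416) and Dusp1 at -1.57 (0.00427). Without vehicle library 2 or vehicle library 3 of 18 weeks, 2 of 10 were called, Egr1 lower and Atf3 higher, where 35.9% of genes were called lower and 35.9% higher with all libraries. Duration of the vehicle and any difference in handling or sequencing cannot be told apart between these groups. Depth differed mainly through vehicle libraries 4 and 6 of 18 weeks, at 14751249 and 9092759 counts. The other vehicle libraries of 18 weeks held 41821402 to 51404595 counts, against 49564350 to 55504925 at 6 weeks. The age of the mice, which is not stated, may differ as well. Acinar markers were called lower in 27 of 27 and Schwann cell markers in 8 of 8 between these groups. Macrophage and stellate cell and fibroblast markers were called lower in 13 of 14 each, and endothelial markers in 10 of 14. Of 10 beta cell markers 5 were called lower and 1 higher. They held 13.5 to 19.0% of counts in vehicle islets at 18 weeks and 22.6 to 24.6% at 6 weeks. The part of these shifts in the member values was not tested.

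Set against Fos within the same library, members kept different proportions in the 3 settings. This ratio of counts needs no scaling between libraries, it was chosen after the values were seen, and it carries no test. Fosb counts were 16.9 to 24.2% of Fos counts in cadmium and 16.6 to 32.4% in vehicle islets at 6 weeks. At 18 weeks they were 34.0 to 62.7% in cadmium and 39.4 to 64.7% in vehicle islets, and in culture 6.71 to 19.2% and 4.29 to 16.4%. Fosb ratios of 18 weeks thus lay above all others in both groups, whether Fos itself was high or low in the library.

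The Atf3 ratio lay higher at 18 weeks than at 6 weeks, and higher again in culture, with no overlap. Atf3 counts were 0.399 to 1.24% of Fos in cadmium and 0.755 to 1.02% in vehicle islets at 6 weeks, and 4.22 to 15.1% in cadmium and 3.58 to 8.495% in vehicle islets at 18 weeks. In culture they were 68.97 to 372% with cadmium and 50.1 to 451% with vehicle. Egr1 lay within a narrow band at 6 weeks, 42.4 to 49.8% of Fos in cadmium and 41.8 to 53.5% in vehicle islets. At 18 weeks it spread over 12.1 to 52.2% in cadmium and 18.3 to 52.6% in vehicle islets, and in culture it exceeded Fos in every library, at 126 to 326% with cadmium and 109.6 to 413% with vehicle. The median ratios of Jun, Junb, Ier2, Nr4a1, Dusp1 and Klf2 rose in the same order as Atf3, with overlap between 6 and 18 weeks. For Dusp1 the vehicle medians were 15.2% at 6 weeks, 32.0% at 18 weeks and 279% in culture. All ratios share Fos as denominator, which averaged 715, 317 and 7.45 CPM in these vehicle groups.

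**Figure D5:**
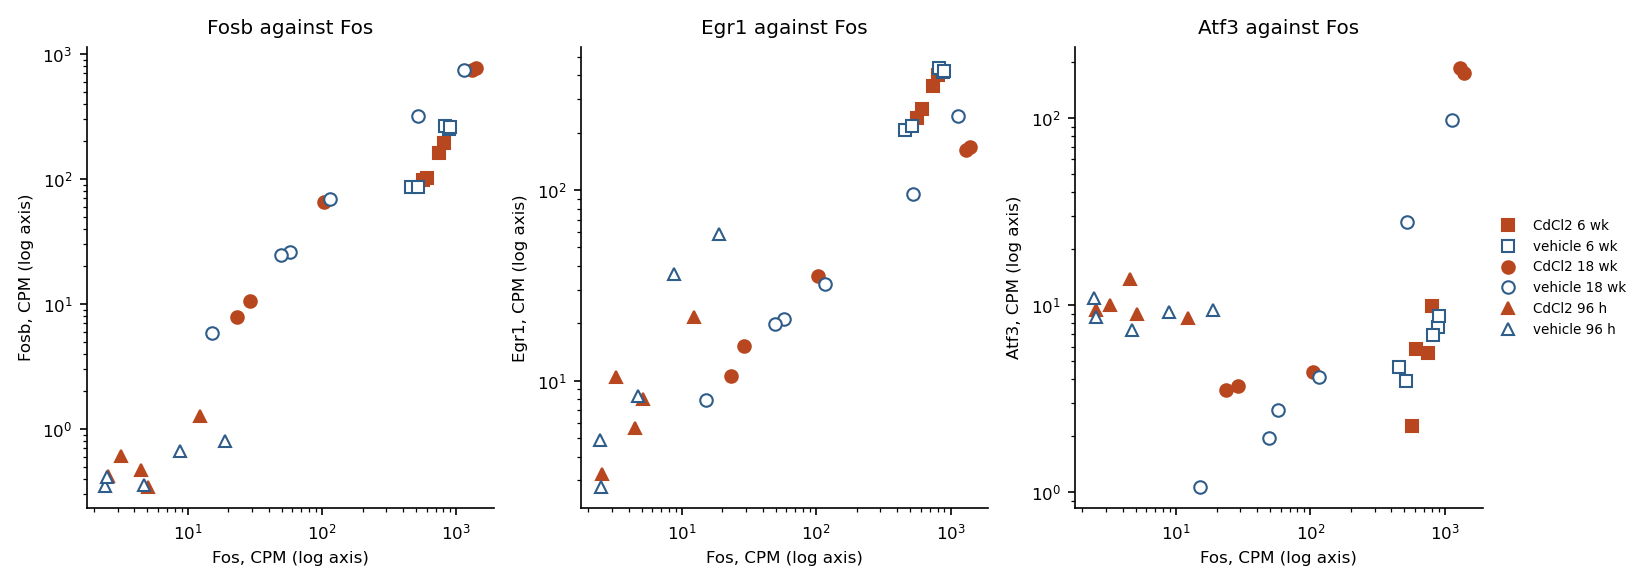
CPM of Fosb, Egr1 and Atf3 against Fos, 1 point per library on log axes. Squares are 6 weeks, circles 18 weeks and triangles cultures, filled for CdCl2 and open for vehicle. Atf3 stands at 7.33 to 13.8 CPM in all cultures although Fos there is at 2.43 to 18.8 CPM, and Fosb of 18 weeks lies above the trend of 6 weeks.

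Lists of other genes of the same response give the setting of the members. With cadmium at 18 weeks, 17 of 17 tested genes among the other early response transcription factors had positive log2 fold changes, with a median of 0.39 and 0 called, where 50.05% of all genes were positive and 0.359% called. This list deviated from its group mean by 1.18 and 1.11 log2 units in cadmium libraries 4 and 5 and by 0.52 and 1.25 in vehicle libraries 4 and 5, which are 2 of 5 cadmium and 2 of 6 vehicle libraries. Their part in the lean was not tested. The lowest p was that of Id3, an inhibitor of differentiation, at 0.47 ± 0.14 (SE, edgeR adjusted p = 0.153). Of 25 feedback and mRNA decay genes 20 were positive, with a median of 0.21 and 0 called, Spry4 having the lowest p at -0.50 ± 0.16 (adjusted p = 0.155). The 11 AP-1 partners, of which 10 were tested, had a median of 0.30, and the 25 upstream kinases and factors -0.08. At 6 weeks 0 genes of any of the 6 lists were called. The medians there ran from -0.17 for other early response products, with 17 of 18 negative, to 0.02 for feedback and mRNA decay. In culture 0 were called as well, and other early response products were positive in 17 of 18, with a median of 0.19.

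Between vehicle groups these lists split. In culture against 6 weeks, feedback and mRNA decay genes were called lower in 16 and higher in 4 of 24 tested, where 34.8% of all genes were called lower and 33% higher. Zfp36 fell by 2.60 ± 0.11 and Ier5 by 1.16 ± 0.06 on the log2 scale (SE, edgeR adjusted p = 2.527e-10 and 1.041e-09). Among the other early response transcription factors 10 were called lower and 3 higher of 17 tested, and Id2 and Id3 rose by 2.001 ± 0.056 and 1.95 ± 0.09 (SE, edgeR adjusted p = 2.919e-12 and 8.644e-10). Heat shock genes were called higher in 6 and lower in 6 of 13 there, and read against the same shares of all genes. At 18 against 6 weeks, 8 of 13 heat shock genes were called higher and 2 lower, against 35.9% of all genes each way, among the higher ones Hsp90aa1 at 3.18 ± 0.20 and Hspa8 at 2.70 ± 0.18 (edgeR adjusted p = 2.776e-09 and 4.543e-09), and 20 of 25 upstream kinases and factors were called lower and 2 higher. Crtc2, a coactivator of CREB, fell by 2.27 ± 0.08, and Mef2d by 2.07 ± 0.08 (edgeR adjusted p = 7.993e-12 and 1.386e-11), in a comparison in which 71.8% of all genes were called.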

How the data were processed

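RNA-seq counts were used as the authors deposited them, raw read counts per Ensembl gene and library with no normalization. Per the submitters' processing notes, cutadapt 1.13, STAR, HTSeq 0.6.1p1, DESeq2 and mouse build mm10 were used upstream, and neither a strand setting nor an annotation release is stated. Of 54232 gene IDs 54079 (99.72%) matched a symbol. Exon lengths and overlaps come from GENCODE on mm10, promoters from RefSeq on GRCm38.p6. Among 61 within-group pairs of libraries none were identical (lowest chi-square per degree of freedom 2.77). Each library was treated as 1 sample, though this does not show that libraries came from separate animals or cultures.

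In R 4.3.3, edgeR 4.0.16 ran quasi-likelihood tests of each comparison using the libraries of its groups alone. Genes were kept by filterByExpr, with 10 as lowest count and 15 as lowest total, and scaled by TMM, with Benjamini-Hochberg adjustment over all genes and calls under 0.05. Differences of the cadmium effect were contrasts in 1 fit of all 6 groups. CPM come from that fit, log2 CPM use a prior count of 2, fold changes are given ± SE and levels ± SD. The fit was tested on simulated data. DESeq2 1.42.0, RLE scaling, no count filter, a replicate block, 1 fit of all groups, the acinar share as a covariate, and fits without shallow libraries or each library in turn were the alternatives. Only 3 genes of smallest p per list and comparison could be named, and list medians stand in for list tests. The members and lists were chosen with earlier results of these data known.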

Additional observations from a re-analysis of the deposited data

Results flagged for a closer look

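Of 60 sets of values (10 members in 6 groups), 5 held a library far from the nearest other one by Dixon's ratio. Its cutoff flags about 1 in 20 for separate sets of normally spread values. These were CPM without a log scale, of members that moved together, so the 5 cannot be read against that rate. Fos stood at 12.32 CPM in cadmium culture 4, with the next culture at 5.089 CPM. Nr4a1 stood at 5.842 CPM in vehicle culture 4, with the next at 2.748 CPM, and at 39.96 CPM in vehicle library 3 of 6 weeks, with the next at 27.85 CPM. In vehicle library 5 of 18 weeks Egr1 stood at 243.9 CPM, with the next at 95.27 CPM, and Atf3 at 97.03 CPM, with the next at 27.76 CPM. Groups whose high libraries come as a pair, as with cadmium at 18 weeks, cannot be found by this ratio.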

How the results depend on the processing

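Under the alternatives 160 counts of members called equalled those reported, 4 were lower by 1 member (Atf3 in culture over 6 weeks) and 7 were higher. With a replicate block the count was 1 of 10 for cadmium in culture, where Klf2 passed at 1.16 (adjusted p = 0.0233) and 1.33% of all genes were called, and 4 of 10 for vehicle at 18 over 6 weeks, all lower, where 34.5% of genes were. With each library left out in turn that last count ran from 1 to 8. In culture all 5 pairs of equal numbers correlated positively (r from 0.0754 to 0.292, against -0.252 to 0.203 for unequal numbers), and 7 of 10 cultures correlated best with their own number. The numbers were not taken as pairs, since the labels give them no shared origin and 1 of the 5 values lay under the 0.1 asked of every pair. At 6 weeks 1 of 8 and at 18 weeks 5 of 10 libraries correlated best with their own number. Egr1 in vehicle cultures over 18 weeks passed under the block at -1.85 (adjusted p = 3.7e-05). Counts of all genes called for cadmium at 18 weeks were 75 as reported, 770 by DESeq2, 2496 in 1 fit of all 6 groups and 1 with the block. In culture they were 1 as reported, 1 by DESeq2, 0 in 1 fit and 223 with the block, and at 6 weeks 0, 11, 1 and 0. For the cadmium effect at 18 minus 6 weeks 382 genes were called as reported, 1402 by DESeq2 and 713 with the block, and for 96 hours minus 18 weeks 4, 199 and 1.

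Signs turned for 37 member values, all of them not called. With the acinar share as a covariate, cadmium at 6 weeks gave 0.27 for Fos, 0.31 for Fosb, 0.36 for Jun, 0.39 for Egr1, 0.15 for Ier2, 0.65 for Atf3 and 0.16 for Dusp1. At 18 weeks the covariate gave -0.51 for Fos, -0.75 for Fosb, -0.56 for Jun, -0.20 for Junb, -0.94 for Egr1, -0.70 for Ier2, -0.82 for Atf3, -0.31 for Dusp1 and -0.30 for Klf2. The acinar share went largely with cadmium at 18 weeks, so that fit cannot separate them well. Without the 3 shallow libraries cadmium at 18 weeks gave -0.014 for Fosb and -0.45 for Egr1. The replicate block at 6 weeks gave 0.061 for Fos, 0.052 for Jun and 0.026 for Egr1. Fosb for vehicle at 18 over 6 weeks was -0.023 without the count filter and -0.87 with the block. The cause was not tested.

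Leaving out single libraries, cadmium at 6 weeks ran from -0.20 to 0.021 for Fos, -0.19 to 0.082 for Jun and -0.49 to 0.15 for Atf3. At 18 weeks it ran from -0.34 to 1.16 for Egr1, -0.59 to 0.52 for Nr4a1 and -0.15 to 0.90 for Klf2. In culture it ran from -0.95 to 0.27 for Fos, -0.16 to 0.48 for Fosb, -0.033 to 0.34 for Junb, -0.16 to 0.035 for Ier2 and -0.13 to 0.15 for Dusp1. For vehicle at 18 over 6 weeks it ran from -1.12 to 0.33 for Fosb and -0.70 to 0.077 for Nr4a1, and for vehicle cultures over 18 weeks from -1.66 to 0.36 for Atf3. Klf2 in culture, at 5 to 26 counts per library, is limited by depth.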
